A study of Mus musculus with 12 samples.

Results

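AKT Cre/NRAS is a murine hepatocellular carcinoma (HCC) cell line that carries an activated NRAS transgene and from which a myristoylated, activated AKT transgene has been removed with Cre recombinase. It was made from a single parental line, AKT/NRAS, which grew out of a tumour raised by hydrodynamic tail vein injection of both oncogenes. The experiment described here compared AKT Cre/NRAS cells transfected with a pool of siRNAs against *Dusp4* with the same cells transfected with a non-targeting control pool (SCR), with 3 biological replicates in each group. Transfection with RNAiMAX was repeated after 48 h, cells were collected a further 24 h later, and 100 ng of total RNA per sample was hybridised to the nCounter Mouse PanCancer Pathways panel, on which each gene is counted by 1 barcoded probe. The same comparison was made in the parental AKT/NRAS cells, which retain the AKT transgene, so that the series holds 12 samples in 4 groups. All 4 groups share the NRAS transgene and the transfection. The genes described are the 530 of 770 on the panel whose deposited value was above the floor of 20 in at least 1 of the 6 AKT Cre/NRAS samples. The genes nearest to that limit were *Col27a1*, *Epor* and *Sost*, with highest deposited values of 20.8, 21.3 and 22.7, and the other 240 genes stood at 20 in all 6 samples. After scaling to reference genes and with 1 common floor for all samples (27.1 normalized counts), 503 of the 530 genes remained above the floor in at least 1 of the 6 samples and were tested, and the other 27 were not.

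DUSP4 is a dual-specificity phosphatase of the nucleus that removes phosphate from the threonine and tyrosine of activated MAP kinases, chiefly ERK, JNK and p38. Its gene is itself induced by ERK, so that the enzyme acts as a negative feedback on RAS signalling, together with the cytoplasmic DUSP6, the nuclear DUSP5 and the Sprouty proteins. Transcripts that ERK induces, such as those of FOSL1, MYC, ETV4 and the DUSPs, are commonly read as a measure of the output of the pathway. In HCC, RAS and MAPK signalling is often active without a RAS mutation, and in these cells it is driven by the NRAS transgene.

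The sum of the counts above the floor, obtained by dividing the deposited values by the positive-control factor of each sample, was 942400 to 1081646 in the 3 SCR samples and 804650 to 1021756 in the 3 siRNA samples. The SCR samples differed more among themselves than the siRNA samples did. Across the 470 genes above the floor in all 6 samples, the median SD over replicates on the log2 scale was 0.18 in SCR and 0.080 in siRNA, against 0.068 and 0.067 in the AKT/NRAS SCR and siRNA samples, and the SD was larger in SCR in 375 of the 470. The direction of this spread was that of the siRNA comparison. The difference of SCR 3 and SCR 1 was related inversely to the difference of the siRNA mean and SCR 2 (Pearson's r = -0.68 across 470 genes), and so was the difference of SCR 2 and SCR 1 to that of the siRNA mean and SCR 3 (r = -0.67), with no sample on both sides. Between SCR 3 minus SCR 2 and the siRNA mean minus SCR 1 the value was -0.24. These are descriptions across genes of the same 6 samples, and genes are not independent replicates. SCR 2 and SCR 3 therefore stood apart from SCR 1, on the side away from the siRNA samples. Values are given below with all 3 SCR samples and with SCR 1 alone, the nearest of the 3 to the siRNA samples. With SCR 1 alone the spread comes from the siRNA samples, and SCR 1 is assumed to vary as they do. The log2 ratio of *Rpl19*, a ribosomal protein gene, to *Polr2a*, the largest subunit of RNA polymerase II, moved along with this order: it was 5.47, 6.36 and 6.88 in SCR 1, 2 and 3 and 4.72, 4.92 and 5.03 in the siRNA samples. The sample titles carry running numbers, in which the siRNA samples come before the SCR samples. Over the 6 samples the ratio rose with that number, so group and running number cannot be told apart here. The part that the difference between samples or their order had in the results was not tested.

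**Figure D1:**
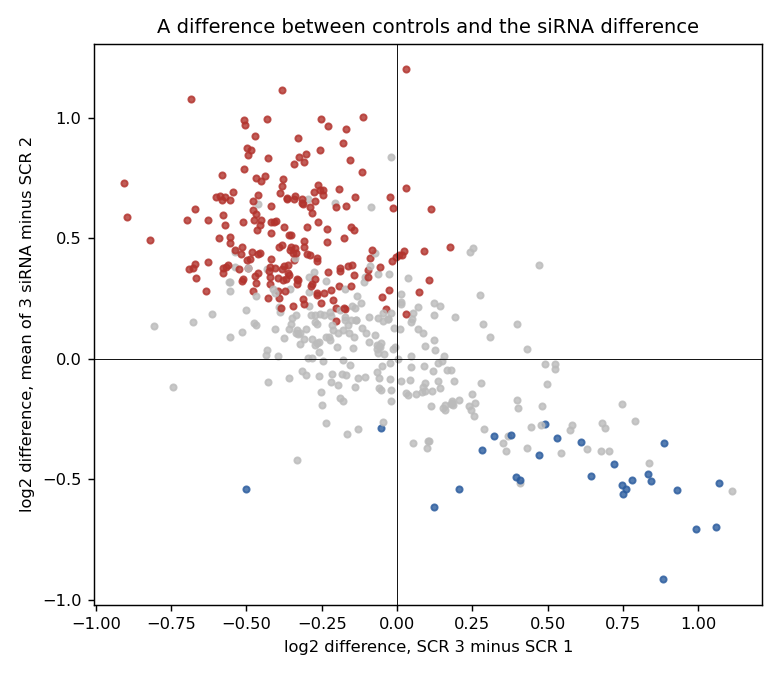
Each point is 1 of the 470 genes above the floor in all 6 AKT Cre/NRAS samples, with the log2 difference of SCR 3 and SCR 1 on the x axis and that of the mean of the 3 siRNA samples and SCR 2 on the y axis. Genes that rose after *Dusp4* siRNA are red, those that fell are blue and the rest are grey; the points run from the upper left to the lower right (r = -0.68).

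*Dusp4* fell after its siRNA. The 3 SCR samples had 6343, 5843 and 4483 normalized counts and the 3 siRNA samples 4126, 4174 and 3769. Every siRNA sample was lower than every SCR sample, but SCR 3 was closer to the siRNA samples than to SCR 1. The log2 fold change was -0.45 (standard error 0.12, limma adjusted p = 0.0178), and against SCR 1, 2 and 3 taken singly the siRNA mean differed by -0.66, -0.54 and -0.16. In the parental line the SCR samples had 1273, 1226 and 1186 normalized counts and the siRNA samples 350.1, 389 and 371, so that silenced AKT Cre/NRAS cells still had more *Dusp4* than parental cells with the control pool. The call was lost without siRNA replicate 1 (limma adjusted p = 0.0596), siRNA replicate 3 (0.0674) or SCR replicate 2 (0.0677) and with the deposited values (0.37), and with scaling to the 5 reference genes ranked first the log2 fold change was 0.00098 (0.997), beside a median of 0.67 over all genes. The panel measures the transcript only, and DUSP4 protein was not analysed here.

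Across the panel 204 genes rose and 27 fell at a limma adjusted p under 0.05, which is 40.6% and 5.37% of the 503 genes tested. The counts given below for gene lists are to be read beside these shares. The median log2 fold change was 0.48 over the genes that rose and -0.51 over those that fell, and 0.23 over all 503 genes. A shift of the whole panel is thus part of these values. Of the 15 reference genes that set the scale, 3 rose (*Sap130* 0.54, *Abcf1* 0.52 and *Sdha* 0.44) and 4 fell (*Rpl19* -0.61, *Hprt* -0.46, *Nubp1* -0.41 and *Oaz1* -0.35). When each sample was re-centred on the median of the genes above the floor in all 6 samples, 49 of 511 genes rose (9.59%) and 113 fell (22.1%), with a median of -0.053, and all 49 and 27 of the 113 had moved the same way with the reference genes. Over the 8 scalings the median of all genes ran from -0.053 to 0.67, the highest with the 5 reference genes ranked first, where 254 genes rose and 1 fell. Quantile normalization gave 57 rises and 42 falls. The siRNA samples lay above all SCR samples in 50.7% of tested genes and below all of them in 9.34%. Among called genes, the groups did not overlap in 202 of the 204 that rose and 26 of the 27 that fell. A lack of overlap therefore does not set a called gene apart from the others. Where it is given below, it is to be read beside the 50.7% and 9.34% of all tested genes. Re-centred counts of gene lists are likewise to be read beside the 9.59% that rose and the 22.1% that fell. Against SCR 1 alone 105 genes rose and 5 fell, among them 103 of the 204 and 4 of the 27. The 5 that fell against SCR 1 alone were *Dusp4*, the cyclin genes *Ccne2* and *Ccna2*, and the stress genes *Ddit3* and *Ddit4*. SCR 1 was the highest of the SCR samples in 177 of the 204 genes that rose and the lowest in 25 of the 27 that fell, and SCR 3 was the lowest in 157 and the highest in 23.

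The calls differed in how far they rested on the scaling. Of the 8 scalings run, 37 genes rose in at least 7, and none in all 8, since the deposited values gave a single call. These 37 include the Notch genes *Notch1*, *Notch2*, *Jag2* and *Dll1*, the chromatin genes *Arid1a*, *Arid1b*, *Crebbp*, *Ep300*, *Kmt2c*, *Setd2*, *Asxl1* and *Kdm5c*, the TGF-beta genes *Tgfb1* and *Smad3*, and the matrix and adhesion genes *Fn1*, *Col5a1*, *Lama5* and *Itga3*. Among the genes that fell, *Ccne2* passed in all 8 and no other passed in more than 5. *Ccne2* encodes cyclin E2, which activates CDK2 at the entry into S phase. It had 78.2, 95.8 and 145 normalized counts in the SCR samples and 48, 52.3 and 50.9 in the siRNA samples (log2 fold change -1.01, standard error 0.2, limma adjusted p = 0.0046). The siRNA samples were nearly equal and below every SCR sample, and the difference was -0.62 against SCR 1 alone and -1.51 against SCR 3 alone.

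**Figure D2:**
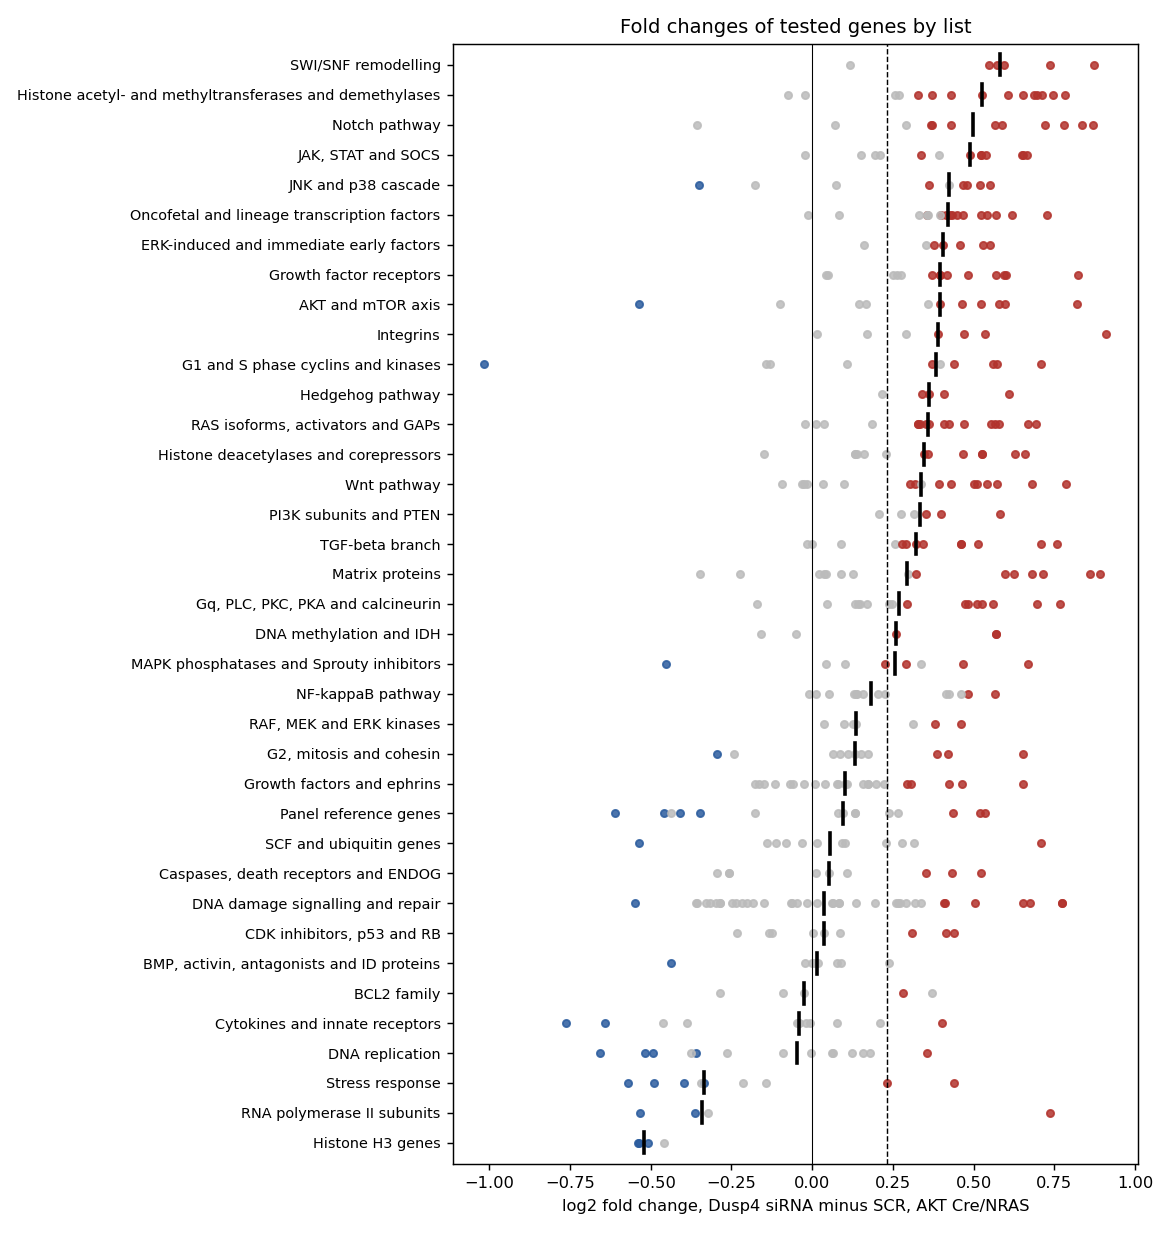
Log2 fold change (x axis, *Dusp4* siRNA minus SCR in AKT Cre/NRAS) of each tested gene, in rows by gene list ordered by the median of the list (black bar). Red and blue points rose and fell at a limma adjusted p under 0.05 and grey points did not pass; the dashed line is the median of all 503 tested genes (0.23), and the medians run from -0.52 in the histone H3 genes to 0.58 in the SWI/SNF genes.

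The panel holds other phosphatases and feedback inhibitors of the MAPK cascade besides *Dusp4*. Of 8 tested members, 4 rose, 1 fell and 3 missed the threshold, close to the 40.6% of all genes that rose, with a median of 0.26 beside 0.23 over all genes. *Dusp5*, a nuclear phosphatase specific to ERK, had 343, 304 and 283 normalized counts in SCR and 548, 492 and 443 after siRNA, so the lowest siRNA sample was above the highest SCR sample (log2 fold change 0.67, standard error 0.12, limma adjusted p = 0.00355). It was the only member besides *Dusp4* whose call held in at least 5 of the 8 scalings. *Spry4*, a Sprouty inhibitor of RAS activation, rose by 0.47, *Dusp6*, the cytoplasmic ERK phosphatase, by 0.29 and *Dusp10*, which acts on JNK and p38, by 0.22. The last 2 rises are close to the shift of the panel, and re-centring gave -0.0086 and -0.076. *Dusp8*, *Spry1* and *Spry2* did not pass, with log2 fold changes of 0.34, 0.043 and 0.10. With samples re-centred 1 rose and 2 fell, the falls being those of *Dusp4* (-0.75) and *Spry2* (-0.20). Against SCR 1 alone the median of the list was 0.205, beside 0.155 over all tested genes.

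Of 7 tested factors that ERK induces or that respond early to growth factors, 5 rose, 0 fell and 2 missed the threshold, beside 40.6% of all genes that rose, and the median was 0.40 beside 0.23. *Ets2*, an ETS factor, had 1804, 1559 and 1306 normalized counts in SCR and 2439, 2211 and 2144 after siRNA (log2 fold change 0.55, limma adjusted p = 0.00609). *Fosl1*, which encodes the AP-1 subunit FRA1, had 734, 639 and 549 in SCR and 1019, 862 and 879 after siRNA. In neither gene did the groups overlap, nor did they in 202 of the 204 genes that rose. Against SCR 1 alone the siRNA means of the 2 genes were higher by 0.33 and 0.32. *Klf4*, *Myc* and *Etv4* rose by 0.46, 0.40 and 0.38, while the immediate early genes *Jun* and *Fos* had log2 fold changes of 0.35 and 0.16 that did not pass. With the replicate number as a block *Jun* did (limma adjusted p = 0.023). With samples re-centred 0 rose and 0 fell, and against SCR 1 alone the median of these factors was 0.227, beside 0.155 over all tested genes. Of the kinases between RAS and these factors, 2 of 7 rose and none fell: *Mapk3* (ERK1) by 0.46 and *Map2k2* (MEK2) by 0.38. After re-centring none of these kinase genes rose and 2 fell. *Map2k1* (MEK1) and *Braf* had values of 0.14 and 0.31 that did not pass, the second passing with the block (limma adjusted p = 0.0453), and neither did the ERK-activated kinase gene *Rps6ka5* (0.13). In the JNK and p38 cascade 5 of 9 rose and 1 fell, and the kinase genes above JNK, *Map3k1*, *Map3k5* and *Map2k4*, rose by 0.55, 0.48 and 0.36, and the scaffold *Mapk8ip1* by 0.52. The JNK genes moved apart, *Mapk8* (JNK1) from 471, 510.4 and 589 normalized counts to 406, 395 and 425 and *Mapk9* (JNK2) from 602, 561 and 489 to 767, 791 and 723. With samples re-centred the fall of *Mapk8* held (-0.65, limma adjusted p = 0.0247) and the rise of *Mapk9* did not (0.17, limma adjusted p = 0.0943).

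**Figure D3:**
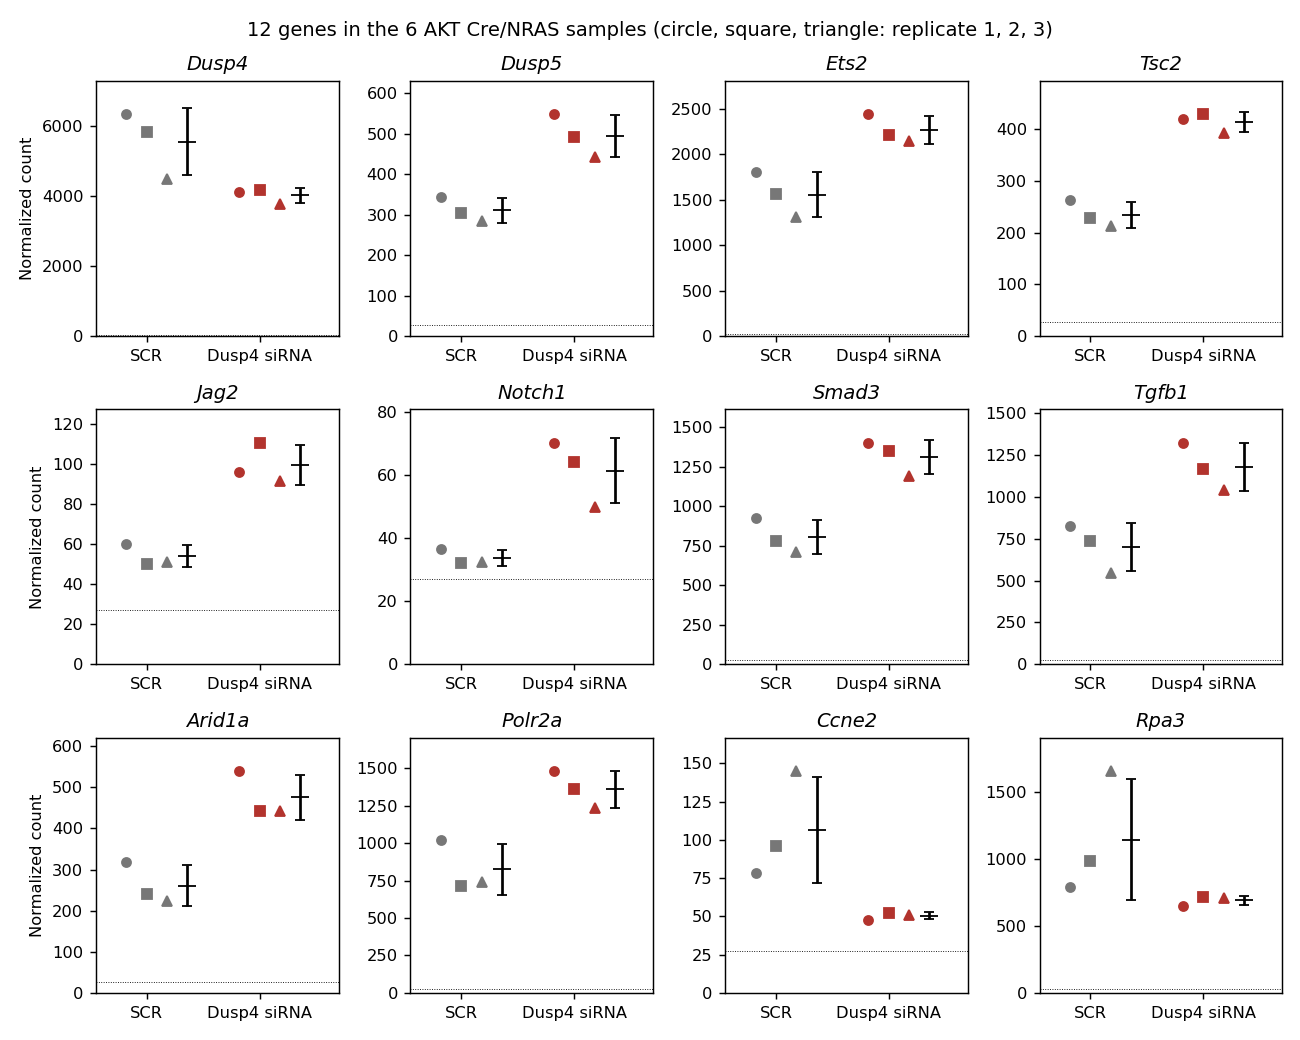
Normalized counts (y axis, from 0) of 12 genes in the 6 AKT Cre/NRAS samples, SCR in grey and *Dusp4* siRNA in red; circle, square and triangle are replicates 1, 2 and 3, the bar is the mean with its SD and the dotted line is the common floor of 27.1. The siRNA samples lie below all SCR samples for *Dusp4*, *Ccne2* and *Rpa3* and above all of them for the other 9 genes, and SCR 1 is the SCR sample nearest to the siRNA samples in all but *Dusp4*.

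Upstream of the cascade lie RAS, its exchange factors and adaptors, and the GTPase-activating proteins that switch it off. Of 17 tested members, 13 rose, 0 fell and 4 missed the threshold, against 40.6% of all genes that rose. Against SCR 1 alone the median of the list was 0.262, beside 0.155 over all tested genes. *Nf1*, which encodes neurofibromin, the GTPase-activating protein that turns RAS off, had 373, 300.0 and 334 normalized counts in SCR and 552, 563 and 485 after siRNA (log2 fold change 0.67, limma adjusted p = 0.00355). *Sos1*, an exchange factor that turns RAS on, had 238, 198 and 197 in SCR and 333, 302 and 302 after siRNA. Both the gene that ends RAS signalling and the one that starts it were thus higher, by 0.67 and 0.57. *Plce1*, a phospholipase C that RAS activates, rose by 0.69, the afadin gene *Mllt4* by 0.58, the RAS effector *Rin1* by 0.47 and the adaptor *Shc2* by 0.55. The RAS genes *Nras* and *Hras* had values of 0.037 and -0.022 that did not pass. With samples re-centred 3 rose and 2 fell.

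The AKT transgene was removed from AKT Cre/NRAS cells, and genes of the PI3K, AKT and mTOR axis were measured. Whether any *Akt1* counts in these cells come from remaining transgene was not tested. Of 6 genes of the PI3K group 3 rose and none fell, and in the AKT and mTOR axis 6 of 11 rose and 1 fell, not far from the 40.6% of all genes that rose. *Tsc2*, which encodes tuberin, the inhibitor of mTORC1 that AKT phosphorylates, had 263, 229 and 213 normalized counts in SCR and 421, 429 and 392 after siRNA. Each siRNA sample was far above the highest SCR sample, and the log2 fold change was 0.82 (standard error 0.11, limma adjusted p = 0.00329) and 0.52 with samples re-centred (limma adjusted p = 0.0247). *Akt1* had 395, 432 and 337 normalized counts in SCR and 547, 587 and 531 after siRNA (log2 fold change 0.52), and *Akt2* had a value of 0.15 that did not pass. In AKT/NRAS, which retains the AKT transgene, *Akt1* had 20228, 20006 and 19259 normalized counts in SCR and 18257, 18566 and 18170.0 after siRNA, far above all AKT Cre/NRAS samples. *Pik3r2*, a regulatory subunit of PI3K, rose by 0.58 with calls in 7 of the 8 scalings, the kinase gene *Gsk3b* by 0.58, *Mtor* by 0.60 and *Stk11*, which encodes LKB1, by 0.46. The PI3K genes *Pik3ca* and *Pik3r1* rose by 0.40 and 0.35, while *Pik3cb* had a value of 0.28 that just missed the threshold. *Pik3r5* stood at the floor in all 3 SCR samples and had 39.1, 30.6 and 32.8 normalized counts after siRNA, and did not pass. The gene that fell was *Them4*, whose product binds AKT, from 235, 313 and 397 to 211, 208 and 217 normalized counts. SCR 1 was close to the siRNA samples here, and the difference was -0.15 against SCR 1 alone. Among Gq, PLC, PKC, PKA and calcineurin genes 8 of 16 rose, near the 40.6% of all genes, and none fell (median 0.27). Among them were *Gnaq* and *Prkca*, which encode a G protein subunit that activates phospholipase C and protein kinase C alpha. *Gnaq* had 479, 386 and 356 normalized counts in SCR and 646, 693 and 729 after siRNA (log2 fold change 0.77), *Gna11*, its near relative, rose by 0.53, and *Prkacb* and *Prkaca*, the catalytic subunits of PKA, by 0.56 and 0.48, *Prkca* by 0.70 and the regulatory subunit *Prkar2a* by 0.51. Of the calcineurin genes *Ppp3ca*, which encodes a catalytic subunit, rose by 0.47, and *Ppp3cb*, *Ppp3cc* and *Ppp3r1* had values of 0.13, -0.17 and 0.15 that did not pass.

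Notch signalling runs from the ligands Jagged and Delta on one cell to Notch receptors on the next, and HES1 is a classical target. Of 12 tested members, 9 rose, 0 fell and 3 missed the threshold, beside 40.6% of all genes that rose and 5.37% that fell, the median was 0.50, and with samples re-centred 4 rose and 1 fell. Ligands and receptors rose together. *Jag2* had 60.3, 50.1 and 51.3 normalized counts in SCR and 96, 111 and 91.4 after siRNA, and *Dll1* had 81, 73.4 and 74.7 in SCR and 138, 127 and 115 after siRNA. The receptor gene *Notch2* had 364, 282 and 289.9 in SCR and 608, 533 and 468 after siRNA, and *Notch1* had 36.7, 32.2 and 32.3 in SCR and 70.3, 64.1 and 50 after siRNA, close to the floor of 27.1. In none of these 4 genes did the groups overlap, nor did they in 202 of the 204 genes that rose. The log2 fold changes of the 4 were 0.87, 0.72, 0.78 and 0.83. *Jag1* rose by 0.43, the coactivator *Maml2* by 0.59, *Numbl* by 0.57, and *Dtx4* and *Lfng* by 0.37 and 0.37. The target *Hes1* had a value of 0.07 (limma adjusted p = 0.681), and *Aph1b*, a part of gamma-secretase, one of -0.36 (0.0692). Against SCR 1 alone the median of the list was 0.325, beside 0.155 over all tested genes.

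In the TGF-beta branch 9 of 13 genes rose, beside 40.6% of all genes, and none fell (median 0.32), with 2 up and 2 down after re-centring. The ligand *Tgfb1* had 825, 733 and 544 normalized counts in SCR and 1321, 1165 and 1037 after siRNA (log2 fold change 0.76, standard error 0.15, limma adjusted p = 0.00474). *Smad3*, which carries the signal to the nucleus, had 927, 783 and 712 in SCR and 1403, 1348 and 1194 after siRNA (log2 fold change 0.71). Both were higher in each siRNA sample than in any SCR sample, as were 202 of the 204 genes that rose. The receptor *Tgfbr2* rose by 0.46, whereas *Tgfbr1* had a value of -0.015 that did not pass, and *Smad2* and *Smad4* rose by 0.28 and 0.29, close to the shift of the panel. The latent TGF-beta binding protein gene *Ltbp1* rose by 0.51, *Sp1* by 0.46 and the activin receptor *Acvr1b* by 0.34. *Thbs1*, which encodes an activator of latent TGF-beta, had a value of 0.09 that did not pass. The BMP branch uses other SMADs. Of 8 tested members, 0 rose, 1 fell and 7 missed the threshold, and the median was 0.014. The one fall was that of *Bambi*, a decoy receptor of the TGF-beta family, from 186, 223 and 215 to 145, 171 and 145 normalized counts. *Id1* and *Id2*, targets of BMP signalling, had values of 0.0009 and 0.076, and *Bmp4*, *Bmp2*, *Bmp7*, *Smad1* and the activin antagonist *Fst* values of 0.0091, -0.022, 0.24, 0.088 and 0.018, none of which passed. With samples re-centred, 5 of these genes fell and none rose, beside 22.1% and 9.59% of all genes.

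Of 17 Wnt pathway genes 10 rose, beside 40.6% of all genes, and none fell, with 1 up and 1 down after re-centring. Against SCR 1 alone their median was 0.204, beside 0.155 over all tested genes. *Ctnnb1*, which encodes beta-catenin, had 13347, 12838 and 10150.0 normalized counts in SCR and 15476, 16636 and 16540.0 after siRNA, with SCR 3 well below SCR 1 and SCR 2. *Tcf7l1*, a repressor of Wnt targets, had 55.6, 38.5 and 27.1 in SCR and 75.9, 60.2 and 67.3 after siRNA, with SCR 3 at the floor, so that its log2 fold change of 0.79 depends on the floor. *Apc*, a scaffold of the complex that degrades beta-catenin, rose by 0.54, the signal transducer *Dvl3* by 0.57, *Fzd2* and *Fzd7*, receptors, by 0.68 and 0.39, and the ligand *Wnt7b* by 0.50. The target *Axin2* had a value of -0.095 (limma adjusted p = 0.587). In the Hedgehog pathway 4 of 5 genes rose, among them the receptor *Ptch1* (from 234, 185 and 169 to 338, 284 and 273 normalized counts, log2 fold change 0.61) and the inhibitor *Sufu* (0.41), with *Gas1* (0.36) and *Gpc4* (0.34), while the transducer *Smo* had a value of 0.22 that did not pass, and none of the 5 passed after re-centring.

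Genes of the matrix and its receptors held the largest rise of the comparison, that of *Itgb4*, and many genes that did not pass. Of 7 integrin genes 4 rose, and of 15 matrix genes 7 rose, near the 40.6% of all genes, with none falling in either. *Itgb4*, the hemidesmosomal integrin beta 4, had 506, 335 and 314 normalized counts in SCR and 781, 722 and 631 after siRNA (log2 fold change 0.91, limma adjusted p = 0.00381). SCR 1 was above SCR 2 and SCR 3, and the difference against SCR 1 alone was 0.49. Its partner *Itga6* rose by 0.47, *Itga3* by 0.53 and *Itgb3* by 0.39, while *Itga2*, *Itga7* and *Itgb7* had values of 0.17, 0.29 and 0.015 that did not pass, *Itga7* passing with the replicate block (limma adjusted p = 0.0373). *Fn1*, fibronectin, had 4832, 3543 and 3396 normalized counts in SCR and 7874, 7199 and 6155 after siRNA and *Lama5*, a laminin chain, 690.3, 540.0 and 579 in SCR and 1049, 973 and 934 after siRNA. Neither overlapped between groups, nor did 202 of the 204 genes that rose. The log2 fold changes of *Fn1* and *Lama5* were 0.86 and 0.71. *Col5a1* was near the floor, with 34.9, 27.1 and 32.3 in SCR and 61.4, 61.2 and 54.3 after siRNA, and SCR 2 stood at it, so its log2 fold change of 0.89 depends on the floor. The filamin genes *Flna* and *Flnc* rose by 0.63 and 0.68 and tenascin C (*Tnc*) by 0.60, whereas *Spp1*, osteopontin, had a value of -0.35 (limma adjusted p = 0.126) and the collagens *Col1a1* and *Col5a2* values of 0.038 and 0.13 that did not pass. With samples re-centred, 2 integrin and 4 matrix genes rose.

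Of the growth factor receptors 9 of 14 rose, beside 40.6% of all genes, and none fell (median 0.40). *Igf1r*, the IGF1 receptor, had 433, 312 and 321 normalized counts in SCR and 656, 639 and 575 after siRNA, and was higher in each siRNA sample than in any SCR sample (log2 fold change 0.82, standard error 0.13, limma adjusted p = 0.00329). The related *Insr*, the insulin receptor, rose by 0.60, *Erbb2* by 0.57 and *Met*, the receptor of hepatocyte growth factor, by 0.40, and the FGF receptor *Fgfr2* by 0.40. *Egfr* and *Erbb3* had values of 0.26 and 0.041 that did not pass, the first passing with the replicate block (limma adjusted p = 0.0409). After re-centring 1 receptor gene rose, *Igf1r* (0.52), and 1 fell. Of the ligands 5 of 23 growth factor and ephrin genes rose and none fell, with a median of 0.10. After re-centring 1 of these ligand genes rose and 9 fell, beside 9.59% and 22.1% of all genes. *Efna5*, an ephrin, had 441, 362 and 338 normalized counts in SCR and 608, 616 and 561 after siRNA (log2 fold change 0.65), and *Vegfb*, *Vegfc*, *Fgf1* and *Pdgfb* rose by 0.46, 0.29, 0.42 and 0.31. *Vegfa* and *Pdgfa* had values of 0.077 and 0.20 that did not pass.

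Among the pathway lists, 2 of chromatin regulators had the highest medians. Of 6 SWI/SNF genes, 5 rose, 0 fell and 1 missed the threshold (median 0.58), and of 15 histone acetyltransferase, methyltransferase and demethylase genes 11 rose, none fell and 4 did not pass (median 0.53), beside 40.6% of all genes that rose. *Arid1a*, the DNA-binding subunit of the BAF complex, had 318, 241 and 224 normalized counts in SCR and 539, 443 and 443 after siRNA (log2 fold change 0.87, standard error 0.15, limma adjusted p = 0.00355). The catalytic subunit gene *Smarca4* had 1109, 819 and 811 in SCR and 1388, 1361 and 1342 after siRNA (log2 fold change 0.59), while the core subunit gene *Smarcb1* had 474, 420.0 and 420.3 in SCR and 459.7, 487 and 476 after siRNA and did not pass (0.12). *Arid1b*, *Pbrm1* and *Atrx* rose by 0.74, 0.57 and 0.55. The acetyltransferase genes *Crebbp* and *Ep300* were higher too, *Crebbp* with 819, 660.0 and 661 normalized counts in SCR and 1249.7, 1145 and 1099.8 after siRNA. *Ep300* had 1008, 776 and 804 in SCR and 1448, 1401 and 1315 after siRNA. These 6 siRNA values were each above every SCR value of the same gene, as in 202 of the 204 genes that rose. The methyltransferase genes *Kmt2d*, *Kmt2c* and *Setd2* rose by 0.78, 0.75 and 0.61, *Whsc1* by 0.37, the Polycomb cofactor *Asxl1* by 0.69 and the demethylase *Kdm5c* by 0.53, and *Ezh2* and *Suv39h2* had values of -0.075 and -0.023 that did not pass. After re-centring, 4 rose and 0 fell among the SWI/SNF genes and 6 rose and 1 fell among the acetyl- and methyltransferases and demethylases. Against SCR 1 alone the medians of the 2 lists were 0.333 and 0.332, beside 0.155 over all tested genes. Of 13 histone deacetylase and corepressor genes 7 rose and none fell: the corepressors *Bcor* (0.63), *Sin3a* (0.52), *Ncor1* (0.47) and the mediator gene *Med12* (0.53) were among them with *Hdac4*, *Hdac5* and *Hdac6* (0.35, 0.36 and 0.66), whereas *Hdac1*, *Hdac2* and *Hdac3* had values of 0.16, 0.23 and 0.13 that did not pass. The DNA methyltransferase genes *Dnmt1* and *Dnmt3a* rose by 0.57 and 0.57, the second with SCR 2 at the floor, and *Tet2*, which oxidises methylcytosine, had a value of -0.051 that did not pass. *Idh1* rose by 0.26 and *Idh2* had a value of -0.16.

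Of the 27 genes that fell, 2 were in the list of RNA polymerase II subunits, 3 in that of histone H3, 4 in that of DNA replication and 4 in that of stress response, and the others were spread over other lists or are reference genes. Within RNA polymerase II the gene of the largest subunit rose and those of 2 small subunits fell. *Polr2a* had 1023, 713 and 737 normalized counts in SCR and 1479.6, 1364 and 1233 after siRNA (log2 fold change 0.74, limma adjusted p = 0.00381), and *Polr2h* had 856, 1078 and 1527 in SCR and 779.9, 772 and 773 after siRNA (-0.53, 0.0286). *Polr2d* fell by 0.36 on the log2 scale, and *Polr2j* had a value of -0.32 (limma adjusted p = 0.0525, and 0.00808 with the replicate block). After re-centring all 4 passed, *Polr2a* up (0.44) and the others down. Against SCR 1 alone the 4 values were 0.41, -0.14, -0.16 and -0.11, and only that of *Polr2a* passed. The histone genes *Hist1h3b*, *Hist2h3b* and *H3f3a* fell by 0.54, 0.51 and 0.54 on the log2 scale, and *Hist2h3c2* had a value of -0.46 that did not pass. *Hist1h3b* had 33779, 37539 and 44793 normalized counts in SCR and 31727, 25019 and 23371 after siRNA, and siRNA 1 was close to SCR 1. Histone H3 genes are nearly identical in sequence, and which copies each probe binds is not known here.

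Of 14 DNA replication genes, 1 rose, 4 fell and 9 missed the threshold, beside 40.6% of all genes that rose and 5.37% that fell. The median of the list was -0.047. After re-centring 7 of these replication genes fell and none rose, beside 22.1% and 9.59% of all genes. The genes that fell encode accessory proteins of the replication fork. *Rpa3*, the smallest subunit of the single-strand binding protein RPA, had 788, 986 and 1653 normalized counts in SCR and 647, 712 and 709 after siRNA. *Pcna*, the sliding clamp, had 2584, 3143 and 3949 in SCR and 2373, 2454 and 2610.1 after siRNA, and the clamp loader genes *Rfc3* and *Rfc4* followed. *Rfc3* had 169.5, 219 and 292 in SCR and 159.6, 157 and 148 after siRNA and *Rfc4* had 193, 239 and 302 in SCR and 161, 166 and 186 after siRNA. In these 4 genes SCR 3 was the highest sample and SCR 1 came near the siRNA samples or, for *Pcna*, overlapped them. The log2 fold changes were -0.66, -0.36, -0.52 and -0.49 with all SCR samples and -0.19, -0.061, -0.13 and -0.18 against SCR 1 alone, where none passed. The helicase gene *Mcm4* rose by 0.36, and *Mcm2*, *Mcm5* and *Mcm7* had values of 0.064, 0.062 and 0.16 that did not pass. Of 38 DNA damage and repair genes 7 rose, 1 fell and 30 did not pass (median 0.037), beside the same shares of all genes. With the replicate block 10 rose and 5 fell. The genes that rose were the scaffold gene *Mdc1*, the kinase genes *Atm* and *Prkdc*, and *Rad50*, *Xpc*, *Ercc2* and *Msh6*, with values of 0.77, 0.67, 0.41, 0.65, 0.77, 0.50 and 0.41. *Ube2t*, the ubiquitin-conjugating enzyme of the Fanconi pathway, fell from 212, 235 and 392 to 187, 192 and 173 normalized counts (log2 fold change -0.55, and -0.20 against SCR 1 alone). The checkpoint kinases *Chek1* and *Chek2* had values of -0.36 and -0.25 that did not pass, the first passing with the block (limma adjusted p = 0.0418). After re-centring 12 genes of this list fell and 1 rose, beside 22.1% and 9.59% of all genes.

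RefSeq promoter sequences (build GRCm38.p6, 250 bases before the start of a gene) were matched by gene ID for 21 of the 27 genes that fell, 156 of the 204 that rose and 377 of the 503 tested. The letters CCAAT, searched on both strands, were in at least 1 promoter of 13 of the matched genes that fell (61.9%), 63 of those that rose (40.4%), 40.5% of those that did not pass and 37.5% of all 27025 genes in the table. The ETS letters CCGGAAG were in 23.8%, 10.9%, 12.5% and 7.83%, and the CRE letters TGACGTCA in 4.76%, 3.21%, 4.5% and 1.77%. For the genes that fell these 2 shares are only 5 and 1 of 21 genes. These shares are descriptions, and the panel reports no binding at these sites. The 120 bases before the start are shown, 5′ to 3′ on the gene's strand, for 6 genes that fell. These were picked by hand because they hold CCAAT or its complement ATTGG there, in capitals, and do not stand for all genes that fell. Those of *Polr2a*, which rose, and *Polr2h*, which fell, hold neither in these bases.
Rpa3 (chr6:8259142-8259261, minus strand): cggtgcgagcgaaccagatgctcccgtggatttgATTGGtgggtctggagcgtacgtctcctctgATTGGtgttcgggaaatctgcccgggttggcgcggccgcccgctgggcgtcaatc
Ube2t (chr1:134962445-134962564, plus strand): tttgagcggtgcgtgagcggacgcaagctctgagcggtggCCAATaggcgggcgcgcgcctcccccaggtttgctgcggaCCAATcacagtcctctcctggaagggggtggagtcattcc
Pcna (chr2:132253181-132253300, minus strand): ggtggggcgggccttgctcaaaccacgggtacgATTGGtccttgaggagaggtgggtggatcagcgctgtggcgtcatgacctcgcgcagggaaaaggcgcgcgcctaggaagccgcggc
Ddit3 (chr10:127290673-127290792, plus strand): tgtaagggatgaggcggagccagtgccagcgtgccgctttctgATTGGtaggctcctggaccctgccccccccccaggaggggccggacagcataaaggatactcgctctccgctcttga
Gadd45a (chr6:67037408-67037527, minus strand): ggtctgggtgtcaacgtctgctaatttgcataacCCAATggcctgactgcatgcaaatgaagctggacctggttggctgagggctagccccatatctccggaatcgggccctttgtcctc
Bnip3 (chr7:138909507-138909626, minus strand): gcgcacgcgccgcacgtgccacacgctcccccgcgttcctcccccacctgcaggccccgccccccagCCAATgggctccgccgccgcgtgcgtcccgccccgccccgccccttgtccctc
Polr2a (chr11:69758634-69758753, minus strand): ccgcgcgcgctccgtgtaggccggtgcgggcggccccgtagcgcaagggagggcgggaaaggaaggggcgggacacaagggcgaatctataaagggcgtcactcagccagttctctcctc
Polr2h (chr16:20717706-20717825, plus strand): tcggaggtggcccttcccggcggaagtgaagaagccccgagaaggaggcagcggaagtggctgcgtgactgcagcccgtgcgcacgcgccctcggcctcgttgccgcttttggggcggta
*Rpa3* and *Ube2t* hold 2 matches each and the next 4 genes 1 each.

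Cell cycle genes moved in both directions. Of 10 cyclins, kinases and E2F genes of G1 and S phase 5 rose, near the 40.6% of all genes, and 1 fell, and with samples re-centred 2 rose and 3 fell. *Ccnd2* and *Cdk6*, a D-type cyclin and its kinase, rose. *Ccnd2* had 3606, 3273 and 3008 normalized counts in SCR and 4825, 4823 and 4899 after siRNA, and *Cdk6* had 599, 572 and 509 in SCR and 825, 828 and 844 after siRNA. The siRNA samples of both were tightly grouped above SCR, and both also passed after re-centring. *Ccnd1* and *Ccnd3* rose by 0.37 and 0.71, the CDK2 phosphatase *Cdc25a* by 0.44, and *Cdk4* and *Cdk2* had values of -0.14 and 0.11 that did not pass. In the list of G2, mitosis and cohesin genes 3 of 11 rose, the cohesin genes *Smc1a* (0.65) and *Smc3* (0.39) and the phosphatase *Cdc25b* (0.42). *Stmn1*, which encodes the microtubule-binding stathmin, fell by 0.30 on the log2 scale. After re-centring 1 gene of this list rose and 3 fell. *Ccna2*, cyclin A2, had 1049, 992 and 891 normalized counts in SCR and 851, 837 and 786 after siRNA. Its groups did not overlap, as in the 9.34% of tested genes with siRNA below SCR. Its value of -0.24 did not pass with all SCR samples (limma adjusted p = 0.0524), but did with the replicate block (0.0315), after re-centring (-0.54) and against SCR 1 alone (-0.35, limma adjusted p = 0.0195). Of 9 CDK inhibitor, p53 and RB genes 3 rose: *Trp53* by 0.44, *Rb1* by 0.31 and *Cdkn1a* (p21) by 0.41. *Cdkn1b*, which encodes p27, had 5334, 5863 and 6375 normalized counts in SCR and 4924, 5024 and 4971 after siRNA, every siRNA sample below SCR, and a value of -0.23 (limma adjusted p = 0.0577, and 0.0477 with the replicate block). After re-centring 5 genes of this list fell and none rose.

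The stress genes that fell respond to unfolded proteins, DNA damage and hypoxia. Of 9 stress response genes, 2 rose, 4 fell and 3 missed the threshold (median -0.34), beside 40.6% of all genes that rose and 5.37% that fell. After re-centring 7 fell and none rose, beside 22.1% and 9.59% of all genes. *Ddit3*, which encodes CHOP, a factor of the unfolded protein response, had 2994, 3562 and 3259.9 normalized counts in SCR and 2623, 2278 and 2098 after siRNA. *Gadd45a*, a stress sensor that activates p38 and JNK signalling, had 3999.8, 4327 and 4861 in SCR and 3697, 3064 and 3255 after siRNA, and *Ddit4*, an inhibitor of mTORC1 also called REDD1, had 1392, 1299 and 1341 in SCR and 1184, 1041 and 979 after siRNA. In *Ddit3* and *Ddit4* SCR 3 was not the highest SCR sample. As in 26 of the 27 genes that fell and 9.34% of tested genes, siRNA lay below all SCR samples in *Ddit3*, *Gadd45a* and *Ddit4*. Their log2 fold changes were -0.49, -0.40 and -0.34, and *Ddit3* and *Ddit4* passed against SCR 1 alone too (-0.37 and -0.39). *Bnip3*, a mitophagy receptor induced by hypoxia, had 22649, 27947 and 38007 normalized counts in SCR and 18835, 20014 and 19430.0 after siRNA, and its fall of 0.57 on the log2 scale was 0.22 against SCR 1 alone. The heat shock genes *Hspa2* and *Hspb1* rose by 0.44 and 0.23, the second within the shift of the panel. Of 9 caspase and death receptor genes 3 rose and none fell, of 5 BCL2 family genes 1 rose, and of 12 SCF and ubiquitin genes 1 rose and 1 fell. After re-centring 4 caspase and death receptor genes and 3 BCL2 family genes fell, and none rose in either list. In the SCF and ubiquitin list 1 then rose and 4 fell. With the replicate block 3 caspase and death receptor genes rose and 1 fell. *Capn2*, the protease calpain 2, rose by 0.52, and *Cbl*, a ubiquitin ligase that downregulates receptor kinases, had 344, 251 and 305 normalized counts in SCR and 520.0, 479.6 and 461 after siRNA (log2 fold change 0.71). *Skp1a*, the adaptor of SCF ligases, had 3407, 4440.0 and 5766 in SCR and 2951, 3095 and 3119.9 after siRNA (log2 fold change -0.54, and -0.16 against SCR 1 alone). *Casp9*, whose caspase is activated on the apoptosome, rose by 0.43, the death receptor *Tnfrsf10b* by 0.35 and the survival gene *Bcl2l1* by 0.28. The pro-apoptotic *Bax*, *Bad* and *Bid* had values of -0.09, -0.29 and -0.025, none of which passed. With the replicate block *Bad* passed (limma adjusted p = 0.0373), the one fall among the BCL2 family genes.

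Among JAK, STAT and SOCS genes 8 of 13 rose, beside 40.6% of all genes, and none fell (median 0.49). Against SCR 1 alone their median was 0.187, beside 0.155 over all tested genes. *Stat3*, the factor downstream of IL-6, had 1169, 989.5 and 839 normalized counts in SCR and 1534, 1565 and 1576 after siRNA (log2 fold change 0.65, standard error 0.11, limma adjusted p = 0.00355). Its target and inhibitor *Socs3* had 216, 202 and 194 in SCR and 311, 304 and 275 after siRNA (log2 fold change 0.54). Neither gene overlapped between the groups, nor did 202 of the 204 genes that rose. After re-centring *Stat3* alone of the list rose (0.35). The receptor gene *Il6ra* rose by 0.67, *Lifr* by 0.34, the kinase genes *Jak1* and *Jak3* by 0.52 and 0.52 and the inhibitor *Socs1* by 0.65, and *Jak2* had a value of 0.15 that did not pass. Of 14 NF-kappaB genes 2 rose, *Rela* (0.57) and *Nfkb1* (0.48), beside 40.6% of all genes. The targets *Nfkbia* and *Tnfaip3* had values of 0.13 and -0.0096 that did not pass, while 5 genes of this list rose with the replicate block. Of 12 cytokine and innate receptor genes 1 rose, *Il1rap* (0.40), and 2 fell, beside 40.6% and 5.37% of all genes. With the replicate block 4 fell, and after re-centring 6 fell and none rose, beside 22.1% and 9.59% of all genes. *Csf2*, the gene of GM-CSF, had 66.9, 90.4 and 140.5 normalized counts in SCR and 63.6, 46.4 and 57.8 after siRNA, and *Cd40*, a receptor of the TNF family, 55.6, 84.2 and 111 in SCR and 49.1, 50.3 and 54.3 after siRNA. SCR 3 was high in both genes and SCR 1 lay next to the siRNA samples, so that the log2 fold changes of -0.76 and -0.64 were -0.27 and -0.12 against SCR 1 alone. *Cxcl1* and *Tlr2* had values of -0.39 and -0.46 that did not pass with all SCR samples and passed after re-centring and with the replicate block (limma adjusted p = 0.0122 and 0.0256).

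The list of lineage and oncofetal genes holds mostly transcription factors, and also *Cdh1*, *Prom1*, *Nf2* and *Men1*. Of its 18 tested genes 12 rose, beside 40.6% of all genes, with none falling (median 0.42). Against SCR 1 alone the median of the list was 0.27, beside 0.155 over all tested genes. *Runx1* had 461, 394 and 418 normalized counts in SCR and 683, 613 and 594 after siRNA (log2 fold change 0.57), and *Cic*, a repressor of ETV genes that ERK inactivates, had 345, 304 and 216 in SCR and 453, 515 and 443 after siRNA (0.73). *Cebpa*, a hepatocyte factor, rose by 0.40, *Sox9*, a progenitor and biliary factor, by 0.62, and the fetal chromatin proteins *Hmga1* and *Hmga2* by 0.54 and 0.35 and the tumour suppressors *Nf2* and *Men1* by 0.43 and 0.45. *Cdh1*, E-cadherin, rose by 0.52. After re-centring 2 rose and 1 fell. The hepatocyte and progenitor markers on the panel were all detected, 10 of 10, of which 4 rose and none fell, and their summed level was 131700 to 170700 in SCR and 114800 to 128700 after siRNA, most of it *Spp1*. *Prom1*, which encodes the stem cell marker CD133, had 61.2, 60 and 37.9 normalized counts in SCR and 72.5, 69.1 and 59.5 after siRNA, and its value of 0.36 did not pass (limma adjusted p = 0.131, and 0.0494 with the replicate block). Of markers of other cells, 11 of 13 leukocyte genes and 6 of 8 fibroblast or stellate cell genes were at the floor in all 6 samples, including *Csf1r*, *Pdgfrb*, *Col1a2* and *Col3a1*, and so was *Kdr* of the 2 endothelial genes. The summed level of the fibroblast list was 431 to 570 in SCR and 604 to 676 after siRNA, that of the endothelial list 266 to 396 and 414 to 522.5 and that of the leukocyte list 1952 to 2115 and 1954 to 2033, the first led by *Pdgfra* and the second by *Flt1*, which rose by 0.48 and 0.59. Most of the leukocyte sum was *Cd14*, which had a value of -0.041 that did not pass, and of -0.34 after re-centring. In RNA from whole cultures, fewer cells with a transcript and less of it per cell cannot be told apart.

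The response was set against that of the parental AKT/NRAS cells, in which *Dusp4* fell by 1.73 on the log2 scale and the AKT transgene is present. There 27 of 496 genes rose and 59 fell, with a median of -0.025, and the replicates of both groups were close. The comparisons share no sample, and across the 474 genes tested in both the fold changes were weakly and inversely related (Pearson's r = -0.14, Spearman's rho = -0.21, a description across genes). Of the genes past the threshold in both, 8 rose in both lines, 4 fell in both, 27 rose in AKT Cre/NRAS and fell in AKT/NRAS, and 4 fell in AKT Cre/NRAS and rose in AKT/NRAS. The test of the difference, the interaction term of limma over all 12 samples, was past the threshold in 40.6% of 525 genes with a more positive response in AKT Cre/NRAS and in 4.76% with a more negative one, or 213 and 25 genes. With samples re-centred these were 50 and 151 genes, and with quantile normalization 98 and 92. Of the 204 genes that rose in AKT Cre/NRAS 175 also passed this test, and of the 27 that fell 13 did. Of the factors that ERK induces, 6 of 7 had a more positive response in AKT Cre/NRAS, and their median was 0.40 there and -0.31 in AKT/NRAS. *Fosl1*, with 242, 240.0 and 239 normalized counts in AKT/NRAS SCR and 189.6, 167 and 186 after siRNA, had a difference between the lines of 0.94 (limma adjusted p = 0.00158). *Dusp5* had 111, 85.8 and 104 in SCR and 80.3, 64.4 and 66.9 after siRNA there, a fall of 0.50 on the log2 scale against the rise of 0.67 in AKT Cre/NRAS, and differed by 1.17 (0.00158). *Ets2*, *Klf4* and *Dusp10* did likewise, with log2 fold changes of -0.26, -0.31 and -0.41 in AKT/NRAS, all past the threshold, so that these 5 genes fell in the parental cells and rose in the AKT-deleted cells. With samples re-centred their differences between the lines were 0.53, 0.76, 0.40, 0.36 and 0.22, each past the test, but within AKT Cre/NRAS only *Dusp5* of the 5 then passed, and the log2 fold change of *Dusp10* was -0.076. *Dusp6* and *Spry4* had values of -0.082 and -0.091 in AKT/NRAS that did not pass there, and differences between the lines of 0.37 and 0.56 that did. *Ccne2* had a value of -0.042 in AKT/NRAS and differed by -0.97 (limma adjusted p = 0.0155). The stress genes *Ddit3* and *Gadd45a* fell in both lines, by log2 fold changes of -0.48 and -0.22 in AKT/NRAS, and the differences of -0.015 and -0.17 did not pass (limma adjusted p = 0.943 and 0.264). Since *Dusp4* was lowered less in AKT Cre/NRAS, the genotype and the depth of silencing cannot be told apart in this comparison.

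**Figure D4:**
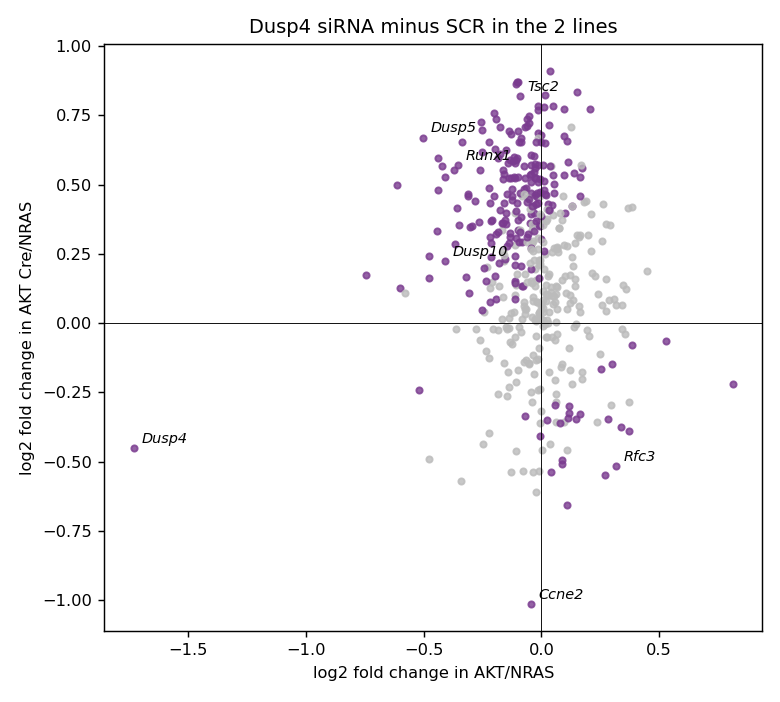
Log2 fold change after *Dusp4* siRNA in AKT/NRAS (x axis) and in AKT Cre/NRAS (y axis) for the 474 genes tested in both lines; purple genes passed the interaction test of limma (adjusted p under 0.05) and grey genes did not. *Dusp4* lies at -1.73 and -0.45, and most purple points are above 0 on the y axis and at or below 0 on the x axis.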

How the data were processed

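RNA of 12 cultures was counted on the NanoString nCounter Mouse PanCancer Pathways panel (770 genes, 6 positive and 8 negative controls), scanned at 555 fields of view and exported by the authors with nSolver 4.0. The deposited signal values are counts that the authors multiplied by a positive-control factor per sample and raised to a floor of 20. They carry no reference-gene scaling, although the methods name one. Here each sample was scaled to the 15 of 20 reference genes that geNorm kept over all 12 samples, given a common floor of 27.1 and taken as log2(value + 1). Groups came from the sample labels. limma 3.58.1 (lmFit and eBayes with an intensity trend, R 4.3.3) was fitted within AKT Cre/NRAS, over genes above the floor in at least 1 sample, and p-values were adjusted after Benjamini and Hochberg and called at 0.05. A second fit over all 12 samples gave the interaction of line and siRNA. The fit within AKT Cre/NRAS was run on simulated data with independent noise for each gene and sample, and the interaction fit was not. Such data hold no difference between replicates that many genes share, so they cannot show how the spread of the SCR samples affects the calls. An exact permutation test of 3 against 3 samples cannot give a two-sided p below 0.1, so none was used for single genes.

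All fold changes are on the log2(value + 1) scale, which understates those of genes near the floor. "Re-centred" means that each sample was set to the median of the genes above the floor in all samples. The 8 scalings were those 2, the deposited values, quantile normalization, and 4 other choices of reference genes. Deviations of same-numbered siRNA and SCR samples from their group means correlated at 0.194, 0.103 and 0.183 over genes. For differently numbered samples the values were -0.226 to 0.0508. Deviations cancel out within a group, so these values are not independent. The titles of all 12 samples share 1 date and carry running numbers that go group by group. They name no batch that joins an siRNA sample to an SCR sample, and whether the replicate numbers pair the samples is not known. A fit with the replicate number as a block was therefore run beside the main fit. Calls come from the fit without the block, and the p-value with the block is given where it changes the call. Replicates are biological by the methods, without stated details of their separation.

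The members and gene lists were chosen with earlier results of these data known. Named genes were *Dusp4*, the 12 largest rises and falls without overlap, the members of each list with the smallest p (up to 6, or all of a list of up to 8) and the 10 smallest p of the interaction. Others were named after their values were seen, and some genes of the lists are not reported here. A planned choice by product length was left out, as no lengths for this panel were used here. The use of SCR 1 alone was added after seeing the data.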

Additional observations from a re-analysis of the deposited data

Results flagged for a closer look

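The 10 genes with the smallest p of the interaction term responded differently in AKT Cre/NRAS and AKT/NRAS cells, each with a more positive response in AKT Cre/NRAS (limma over 12 samples, adjusted p from 0.000728 to 0.00158). They were chosen for that difference. The difference on the log2 scale was 1.28 for *Dusp4*, which fell in both lines and by less in AKT Cre/NRAS. It was 0.922 for *Runx1*, 0.882 for *Smad3*, 0.833 for *Ep300*, 0.633 for *Dusp10* and 0.526 for *Whsc1*, which rose in AKT Cre/NRAS and fell in AKT/NRAS. It was 0.911 for *Tsc2*, 0.772 for *Crebbp* and 0.601 for *Cdk6*, which rose in AKT Cre/NRAS and did not pass in AKT/NRAS. It was 0.893 for *Col5a1*, which was not above the floor in any AKT/NRAS sample, so that its value there is set by the floor. With the deposited values 9 of these 10 differences no longer passed, and that of *Col5a1* still did. The difference in *Whsc1* was also lost with samples re-centred or quantile normalized (0.11 and 0.18), and that in *Cdk6* with samples re-centred (0.19).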

How the results depend on the processing

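With all 3 SCR samples 231 genes changed. The count was 1 with the deposited values, 99 with quantile normalization, 100 with reference genes selected within AKT Cre/NRAS, 56 without a filter on low values, 70 with Benjamini-Yekutieli adjustment, 110 with SCR 1 as the lone control, and 0 when each gene was fitted by ordinary least squares, where 211 genes were at an unadjusted p under 0.05. Leaving out 1 replicate gave 99 to 297 genes, the fewest without siRNA replicate 1 and the most without SCR replicate 1. Without siRNA replicate 2, siRNA replicate 3 or SCR replicate 2 the counts were 121, 118 and 131. The replicate block gave 263 genes, among them 203 of the 204 that rose and all 27 that fell, left *Dusp4* past the threshold (adjusted p = 0.000821) and gave 244 genes for the difference between the lines. Named genes that passed with the block alone are given as such in the results, and no named gene lost its call.

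The log2 fold change of *Dusp4* (-0.45) no longer passed with the deposited values (-0.54), the 10 reference genes ranked first (-0.27), no filter (-0.45), ordinary least squares (-0.45) or Benjamini-Yekutieli adjustment (-0.45), and with the 5 reference genes ranked first it was 0.00098. Leaving out 1 replicate gave -0.60 to -0.35. The 238 genes whose response differed between the lines were 32 with the deposited values, 101 with Benjamini-Yekutieli adjustment and 176 to 307 with 1 replicate left out.

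Of the 185 named genes that changed, 75 kept their call with samples re-centred, 62 with quantile normalization, 137 with all 20 reference genes, 95 with SCR 1 alone and 94 without siRNA replicate 1. The sign turned, with no call, for these. Re-centred values were -0.018 for *Bcl2l1*, -0.076 for *Dusp10*, -0.0086 for *Dusp6*, -0.068 for *Hspb1*, -0.041 for *Idh1*, -0.020 for *Smad2*, -0.0093 for *Smad4* and -0.0061 for *Vegfc*. Quantile normalization gave -0.018 for *Dusp10*, -0.067 for *Hspb1*, -0.052 for *Smad2* and -0.019 for *Vegfc*. The 5 reference genes ranked first gave 0.013 for *Bambi*, 0.12 for *Ddit4*, 0.056 for *Gadd45a*, 0.10 for *Mapk8*, 0.042 for *Nubp1*, 0.11 for *Oaz1*, 0.094 for *Pcna*, 0.090 for *Polr2d* and 0.16 for *Stmn1*. The cause was not tested. Genes at the floor have only an upper limit in those samples, and 3 samples a group limit the precision.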
